A study of Mus musculus with 13 samples.

Results

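The genes described here encode the phagocyte NADPH oxidase, the enzyme that makes superoxide, together with Nox4, a related oxidase. They are Cybb, Cyba, Ncf1, Ncf4, Rac2 and Nox4. These 6 genes were picked by name from the 33618 rows of a count table, and all 6 passed the filter on low counts that left 16753 genes. Their levels were measured by bulk RNA-Seq of whole parametrial white adipose tissue (pmWAT) from 13 female mice, 7 labelled fl/fl and 6 labelled iADKO.

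In phagocytes the oxidase is assembled on demand. Cybb (gp91phox, also called NOX2) and Cyba (p22phox) form the electron-carrying core in the membrane. Cytosolic subunits, among them those encoded by Ncf1 (p47phox) and Ncf4 (p40phox), join it when the cell is activated, together with the GTPase Rac2, which is largely restricted to blood cells. Nox4 needs p22phox but none of the cytosolic subunits, is active without a trigger, gives mainly hydrogen peroxide, and is known from fibroblasts, vascular cells and adipocyte precursors. In adipose tissue the phagocyte genes are read mainly as macrophage and neutrophil genes.

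The fl/fl mice carried loxP sites in both copies of Lmna, which encodes lamins A and C, and had no Cre. The iADKO mice carried the same floxed alleles and in addition Adipoq-CreERT2 (+/-), a tamoxifen-dependent recombinase driven by an adipocyte promoter, so that Cre is made in adipocytes and not in the macrophages and other cells of the fat pad. Mice of both genotypes received tamoxifen at 50 mg/kg on 5 consecutive days at 12 to 14 weeks of age, and the tissue was taken 2 weeks posttamoxifen. The comparison asks how the adipose transcriptome differs shortly after loss of Lmna from adipocytes. The groups also differ in the presence of Cre. Without mice that carry Cre alone, effects of Cre and of Lmna loss cannot be told apart here.

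Libraries held 18854223 to 19776491 counts on genes. Lmna itself was at 84.7 ± 7.51 CPM (read counts scaled by library size; SD, n = 7) in fl/fl and 96.7 ± 11.5 (SD, n = 6) in iADKO (log2 fold change 0.19, adjusted p = 0.0785, edgeR). Counts over the whole gene do not separate the floxed exons and come from all cells of the tissue, so they do not check the labels, and the groups are named below by their labels. The 6 adipocyte markers were all lower in the libraries labelled iADKO, their summed level being 8059 to 15541 CPM in fl/fl and 5657 to 9542 CPM in iADKO, and adipocyte RNA was present in every library. In bulk tissue, a change in the number of cells of a type and a change in RNA per cell cannot be told apart. Unless stated otherwise, values are CPM scaled by the trimmed mean of M values (TMM), fold changes are iADKO over fl/fl, and a gene was called when its Benjamini-Hochberg adjusted p in edgeR's quasi-likelihood test over all 16753 genes was under 0.05.

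Stretches upstream of 4 of the 6 genes are shown, as only these had a RefSeq promoter window. They are the bases before the RefSeq transcription start, with 20 bases after it for Cybb, and were taken from RefSeq promoter windows of build GRCm38.p6. Each window was found once in GRCm39, whose coordinates are given. Capitals mark the reverse complement (TTCCTC) of GAGGAA, a core bound by the myeloid ETS factor PU.1, which was searched on both strands of each 300-base window.
Cybb, chrX:9335544-9335663, minus strand: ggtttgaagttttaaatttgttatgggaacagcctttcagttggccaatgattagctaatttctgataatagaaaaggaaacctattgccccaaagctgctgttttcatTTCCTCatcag
Cyba, chr8:123159680-123159779, minus strand: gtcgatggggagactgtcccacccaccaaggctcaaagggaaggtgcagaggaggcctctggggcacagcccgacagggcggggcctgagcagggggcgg
Ncf1, chr5:134258480-134258579, minus strand: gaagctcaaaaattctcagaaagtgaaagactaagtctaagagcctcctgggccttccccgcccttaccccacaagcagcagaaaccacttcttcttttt
Nox4, chr7:86895757-86895856, plus strand: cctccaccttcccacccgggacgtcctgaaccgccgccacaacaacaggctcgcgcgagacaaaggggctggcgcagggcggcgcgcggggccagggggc

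The letters occurred 1 time in the Cybb window, beginning 10 bases after the start, and 0 times in the windows of Cyba, Ncf1 and Nox4. Of all 32851 windows of this length, 28.3% held them. The Cybb window was AT-rich (GC content 35.3%), the windows of Cyba and Nox4 were GC-rich (60.7% and 68.3%) and that of Ncf1 was at 54.0%, against a median of 52.7% over all windows. A match is a description of the sequence and not a bound site.

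Of the 6 genes, 3 rose in the libraries labelled iADKO (Cyba, Ncf4 and Rac2) and 0 fell, where 14.1% of all genes tested were called higher and 16.3% lower. Cybb and Ncf1 had fold changes of similar size but did not pass the test with all 13 libraries, and Nox4 was at nearly the same level in both groups. The median log2 fold change of the 6 genes was 0.74, beside 0.03 over all genes tested. Expression of every gene overlapped between the groups, and for the 5 phagocyte genes the overlap came largely from the same 2 libraries, fl/fl replicate 5 and iADKO replicate 6.

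**Figure D1:**
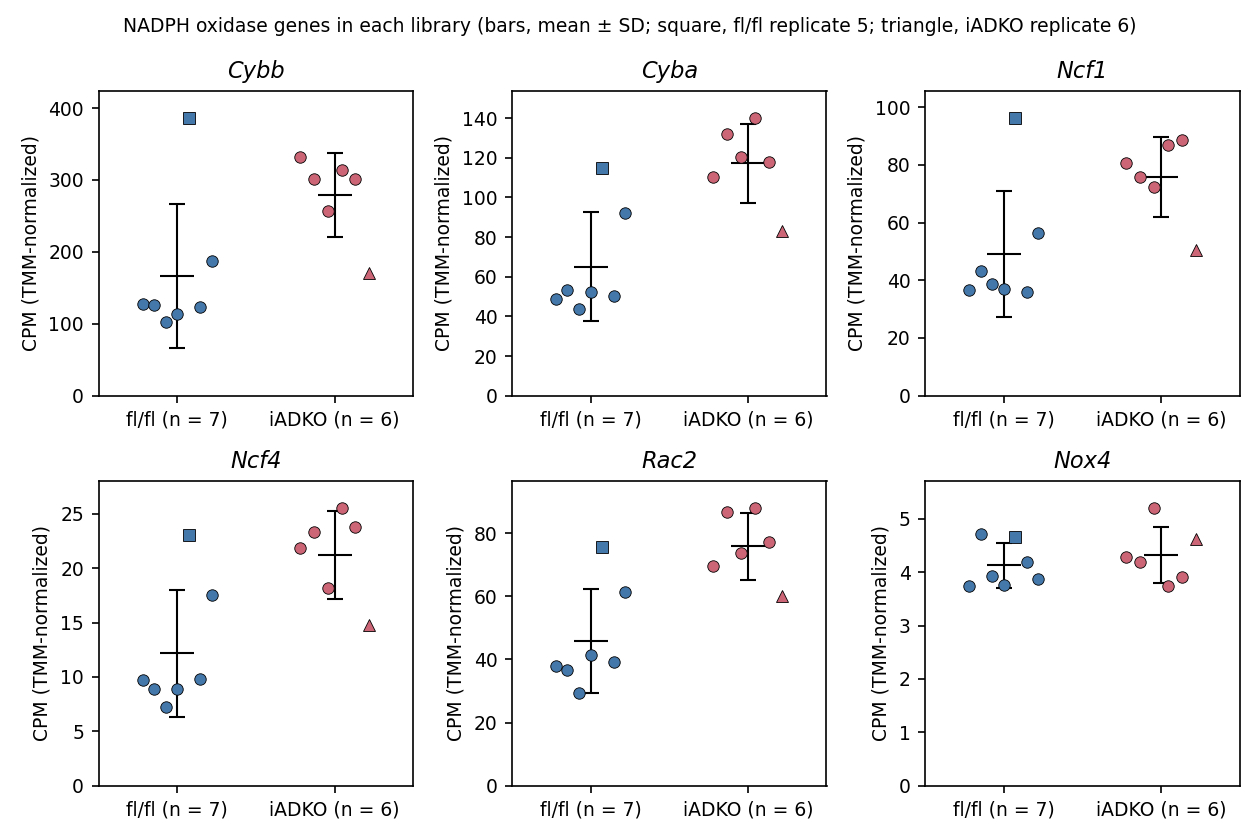
CPM of the 6 NADPH oxidase genes (y axes, from 0) in each fl/fl and iADKO library; points are libraries, bars are mean ± SD, squares mark fl/fl replicate 5 and triangles iADKO replicate 6. For the 5 phagocyte genes, 5 of 6 iADKO libraries lie above all fl/fl libraries other than replicate 5, while Nox4 lies between 3.74 and 5.20 CPM in all libraries.

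Cyba, which encodes the core subunit shared by NOX2 and NOX4, lies on GRCm39 chr8:123150422-123159706, minus strand (ENSMUSG00000006519). It ranged from 43.8 to 115 CPM in fl/fl (median 52.5) and from 82.8 to 140 CPM in iADKO (median 119). Means were 65.1 ± 27.3 (SD, n = 7) and 117 ± 19.8 (SD, n = 6), a log2 fold change of 0.85 (SE 0.23, adjusted p = 0.0148, edgeR). The fl/fl libraries were low except for replicates 5 and 7, and the groups overlapped.

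Cybb, the catalytic subunit (chrX:9301491-9354010, minus strand, ENSMUSG00000015340), was the member with the most counts. Its level was 102 to 386 CPM in fl/fl (median 127) and 171 to 333 CPM in iADKO (median 301). The means of 167 ± 100.3 (SD, n = 7) and 279 ± 58.7 (SD, n = 6) gave a log2 fold change of 0.75 (SE 0.30, adjusted p = 0.0777, edgeR), which did not pass the threshold. The highest of all 13 values was in an fl/fl library, replicate 5. With that library left out, the log2 fold change was 1.11 (adjusted p = 0.000307, edgeR).

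Ncf1 encodes the organizer p47phox, whose phosphorylation starts assembly (chr5:134248907-134258479, minus strand, ENSMUSG00000015950). It was at 36.0 to 96.2 CPM in fl/fl (median 38.6) and 50.6 to 88.7 CPM in iADKO (median 78.3), with means of 49.2 ± 21.9 (SD, n = 7) and 75.9 ± 13.9 (SD, n = 6). The log2 fold change of 0.62 (SE 0.23) did not pass the test (adjusted p = 0.0598, edgeR). Here too the highest value was that of fl/fl replicate 5, and without it the log2 fold change was 0.88 (adjusted p = 0.000414, edgeR). The study placed Ncf1 in an inflammation list chosen on these samples, so its direction is not independent evidence.

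Ncf4 encodes p40phox, the subunit that binds phosphatidylinositol 3-phosphate on phagosomes (chr15:78128982-78146784, plus strand, ENSMUSG00000071715). Its level ran from 7.22 to 23.1 CPM in fl/fl (median 9.71) and from 14.8 to 25.5 CPM in iADKO (median 22.6). Means were 12.2 ± 5.86 (SD, n = 7) and 21.2 ± 4.02 (SD, n = 6), a log2 fold change of 0.80 (SE 0.26, adjusted p = 0.0320, edgeR). The groups overlapped through fl/fl replicates 5 and 7 and the lowest iADKO library, replicate 6. This call depended on single libraries: it was kept in 4 of 13 fits that left out 1 library each, with adjusted p of 0.00133 to 0.0662 (edgeR).

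Rac2, the GTPase that completes the complex, lies close to Ncf4 on the same chromosome (chr15:78443367-78457429, minus strand, ENSMUSG00000033220). It was at 29.2 to 75.5 CPM in fl/fl (median 39.1) and 60.0 to 87.9 CPM in iADKO (median 75.5). Rac2 rose from 45.9 ± 16.4 (SD, n = 7) to 75.9 ± 10.6 CPM (SD, n = 6). Its log2 fold change was 0.73 (SE 0.20, adjusted p = 0.0142, edgeR). The calls of Rac2 and Cyba were kept in all 13 fits that left out 1 library each.

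Nox4 (chr7:86895304-87047918, plus strand, ENSMUSG00000030562) was the lowest of the 6 genes, with 65 to 108 counts per library. It was at 3.74 to 4.72 CPM in fl/fl (median 3.93) and 3.74 to 5.20 CPM in iADKO (median 4.24), and the groups overlapped over nearly their whole range. Means were 4.12 ± 0.41 (SD, n = 7) and 4.33 ± 0.52 (SD, n = 6). The log2 fold change of 0.07 (SE 0.10, adjusted p = 0.647, edgeR) has an interval of 2 SE on either side of -0.14 to 0.28, which does not contain changes of the size fitted for the other 5 genes.

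Exons of 4 of these genes overlap exons on the opposite strand, and the strand setting of the counting is not given in the sources used here. The overlap was 304 of 5815 exon bases for Cybb (with Xk), 423 of 2305 for Cyba (with Il17c), 574 of 3663 for Ncf1 (with Gtf2ird2) and 86 of 3549 for Rac2 (with Gm63166). Of the partners, Xk was at 2.71 CPM in fl/fl and 3.79 CPM in iADKO, Gtf2ird2 was at 9.97 and 10.7 CPM, and Il17c had 5 counts over all libraries. Scaled by exon length as described below, Gtf2ird2 was at 5.59 in fl/fl and 6.79 in iADKO, and Ncf1 at 56.4 and 97.7. How many counts the opposite strand adds to each gene was not tested.

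The 5 phagocyte genes varied together from mouse to mouse. Measured as log2 CPM minus the fl/fl mean, fl/fl replicate 5 was 0.79 to 1.37 higher across these genes and fl/fl replicate 7 was 0.29 to 0.64 higher, while the other 5 fl/fl libraries were below the mean for each of them. Libraries labelled iADKO were 0.65 to 1.19 higher except replicate 6, which was 0.13 to 0.46 higher. Nox4 stayed between -0.13 and 0.33 in all 13 libraries.

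**Figure D2:**
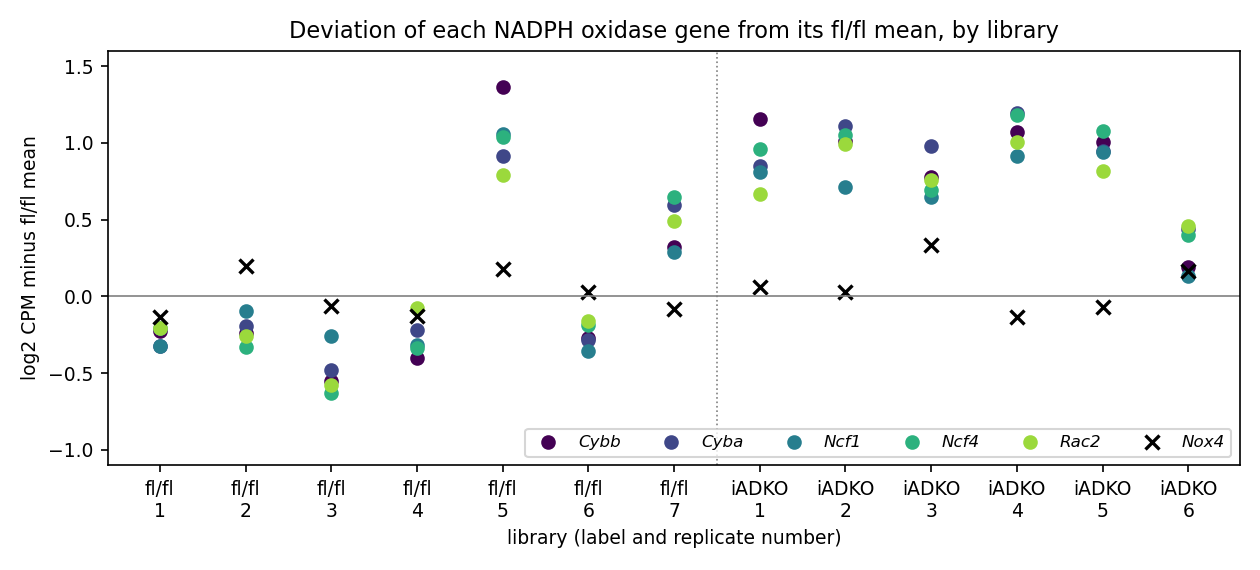
log2 CPM minus the fl/fl mean (y axis) for each NADPH oxidase gene in each of the 13 libraries (x axis); dots are the 5 phagocyte genes, crosses are Nox4, and the dotted line separates the labels. The dots of a library lie close together, and the crosses stay between -0.13 and 0.33. Dots of fl/fl replicate 5 lie within the range of the iADKO libraries for Cyba, Ncf4 and Rac2, and above all of them for Cybb and Ncf1.

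After each gene's group mean was removed, Pearson's r over the 13 libraries was 0.859 to 0.974 for the 10 pairs of phagocyte genes and -0.03 to 0.13 for the 5 pairs with Nox4. These correlations are descriptions over libraries that share depth and tissue composition, and Nox4 also had far fewer counts, which lowers r.

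On the scale of counts per length of summed exons, brought to the same total in each library (TPM-like values, which depend on the gene models), Cybb and Cyba were the highest members. In fl/fl, Cybb was at 121 ± 79.1 and Cyba at 118 ± 53.1 (SD, n = 7), followed by Ncf1 at 56.4 ± 27.7, Rac2 at 54.1 ± 20.9, Ncf4 at 22.1 ± 11.3 and Nox4 at 2.03 ± 0.27. In iADKO, Cyba was at 240 ± 45.8 and Cybb at 227 ± 55.2 (SD, n = 6), Rac2 at 100.7 ± 16.9, Ncf1 at 97.7 ± 20.3, Ncf4 at 43.4 ± 9.49 and Nox4 at 2.39 ± 0.25. These values carry no TMM scaling, so they order the genes within a group and do not measure change between groups. Ratios of genes within a library do not depend on that scaling. Neighbours in this order did not all differ beyond their spread. The ratio of Cyba to Cybb was 1.04 ± 0.16 in fl/fl and 1.08 ± 0.14 in iADKO, and that of Ncf1 to Rac2 was 1.04 ± 0.18 and 0.968 ± 0.13, so these 2 pairs had no fixed order. Ncf4 was below Ncf1 in every library, with a ratio of at most 0.494.

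The proportions among the phagocyte subunits differed between the groups by less than the fl/fl SD. Ncf1 to Cybb was 0.493 ± 0.066 (SD, n = 7) in fl/fl and 0.435 ± 0.035 (SD, n = 6) in iADKO, and Ncf4 to Cybb was 0.190 ± 0.026 and 0.193 ± 0.019. By contrast, the ratio of Rac2 to Rac1, the GTPase of the same family found in nearly all cells, was 0.218 ± 0.084 in fl/fl and 0.364 ± 0.051 in iADKO. Rac1 itself was nearly level, with 286 ± 12.1 CPM in fl/fl and 281 ± 13.8 CPM in iADKO. Its log2 fold change of -0.03 (adjusted p = 0.724, edgeR) turned to 0.18 (adjusted p = 0.00601, edgeR) when only total counts were used for scaling. The ratio of Nox4 to Cybb was 0.0201 ± 0.0066 and 0.0113 ± 0.0041.

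All markers of leukocytes passed the filter on low counts. Those of leukocytes in general, macrophages and monocytes moved most closely with the 5 phagocyte genes. All 3 general leukocyte markers (Ptprc, Coro1a, Laptm5) and 8 of 9 macrophage markers were called higher, while 2 of 5 monocyte and 2 of 9 neutrophil markers were. For comparison with these and the following counts, 14.1% of all genes tested were called higher and 16.3% lower. The summed macrophage markers were at 1401 to 2692 CPM in fl/fl, with replicate 5 at 2692, and 1912 to 3274 CPM in iADKO, with replicate 6 at 1912. The summed neutrophil markers were at 19.4 to 292 CPM and 89.7 to 407 CPM. B cell, T cell and NK cell markers were called higher for 2 of 5, 2 of 5 and 2 of 4 genes, and dendritic and mast cell markers for 3 of 6 and 3 of 4. These are RNA levels. By flow cytometry of pmWAT cells with the adipocytes removed, at the same time posttamoxifen, the study found no difference in leukocytes or macrophages. Its RT-qPCR of other inflammatory genes found few changes in whole fat tissue, increases in isolated adipocytes and minor changes in the remaining cells. The markers here are shares of whole-tissue RNA, so they and the cell counts are on unlike scales. Why the markers and the cell counts differ was not tested. Outside the leukocytes, 2 of 4 epithelial markers were called higher and 2 of 5 endothelial markers lower, and 0 of the markers of progenitors and fibroblasts, smooth muscle, mesothelium, skeletal muscle and red blood cells were called.

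With group means removed, r of the 5 phagocyte genes was 0.905 to 0.977 with the mean of the leukocyte markers, 0.884 to 0.953 with macrophage markers, 0.927 to 0.967 with monocyte markers, 0.600 to 0.803 with neutrophil markers, -0.18 to 0.07 with NK cell markers and -0.87 to -0.81 with adipocyte markers (n = 13 libraries). It was 0.621 to 0.820 with dendritic cell, 0.445 to 0.603 with B cell, 0.388 to 0.592 with T cell and 0.03 to 0.33 with mast cell markers. Outside the leukocytes it was 0.523 to 0.736 with progenitor and fibroblast, 0.361 to 0.590 with mesothelial and 0.01 to 0.20 with skeletal muscle markers. It was -0.80 to -0.62 with endothelial, -0.63 to -0.48 with smooth muscle, -0.36 to -0.27 with epithelial and -0.40 to -0.22 with red blood cell markers. Their part in the result was not tested. Relative to Ptprc (CD45, carried by all leukocytes), the phagocyte genes differed little between the groups. Per length, Cybb to Ptprc was 5.09 ± 1.25 (SD, n = 7) in fl/fl and 5.45 ± 0.75 (SD, n = 6) in iADKO, Cyba to Ptprc was 5.17 ± 0.65 and 5.78 ± 0.37, and Rac2 to Ptprc was 2.40 ± 0.29 and 2.44 ± 0.14. These differences were smaller than the spread in fl/fl.

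**Figure D3:**
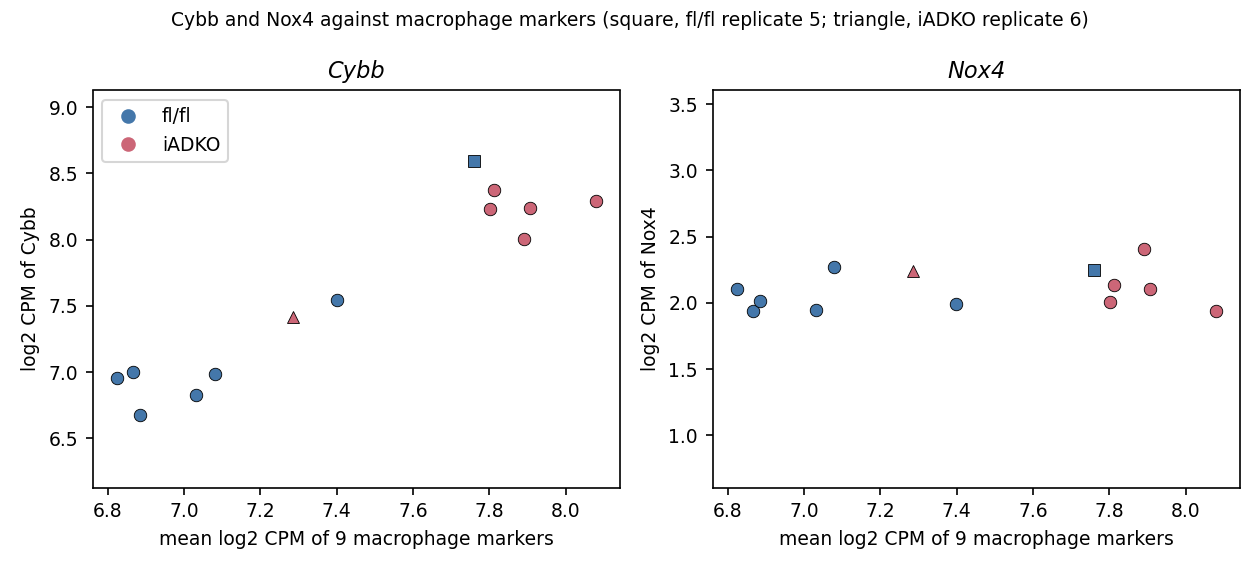
log2 CPM of Cybb (left) and Nox4 (right) against the mean log2 CPM of 9 macrophage markers in each library; blue is fl/fl, red is iADKO, the square is fl/fl replicate 5 and the triangle iADKO replicate 6. Cybb climbs with the markers over both labels, and Nox4 lies at about the same level over the whole range.

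When the mean of the macrophage markers was added to the fit as a covariate, 0 of the 6 genes were called, where 0.68% of all genes tested were called higher and 0.716% lower. The log2 fold changes were then -0.22 for Cybb, 0.03 for Cyba, -0.19 for Ncf1, -0.05 for Ncf4 and 0.06 for Rac2, with adjusted p of 0.501 to 0.943 (edgeR). The covariate itself was higher in iADKO (7.28 to 8.08 on the log2 CPM scale, against 6.82 to 7.76 in fl/fl). Because it runs with genotype, this fit cannot separate the markers from genotype. The part of the markers in the result was not tested.

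The animal numbers in the library names fall into series, and differences were not alike within them. In the 74x to 76x series (3 fl/fl and 2 iADKO libraries), iADKO minus fl/fl in log2 CPM was 1.42 for Cybb, 1.31 for Cyba, 0.99 for Ncf1, 1.39 for Ncf4 and 1.18 for Rac2. In the 72x series (2 and 2 libraries), which holds both fl/fl replicate 5 and iADKO replicate 6, it was 0.15, 0.47, 0.15, 0.44 and 0.38. The other 2 series held a single genotype each. With the series as a block, 0 of the 6 genes were called (4.68% of all genes tested were called higher and 7.17% lower), although fold changes hardly moved: Cyba was at 0.91 (adjusted p = 0.0618, edgeR), Ncf4 at 0.91 (adjusted p = 0.0853) and Rac2 at 0.80 (adjusted p = 0.0511).

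Other settings moved Cybb and Ncf1 across the threshold. All 5 phagocyte genes were called with fl/fl replicate 5 left out (19.9% of all genes tested called higher and 19.7% lower), with DESeq2's test (13.2% and 17.3%), with limma on the deposited rlog values (13.4% and 17.4%) and with scaling by total counts only (44.2% and 7.62%). Nox4 was called in none of these fits. Its log2 fold change was highest with total counts only (0.27, adjusted p = 0.0582, edgeR), a scaling under which the median of all genes moved to 0.24.

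**Figure D4:**
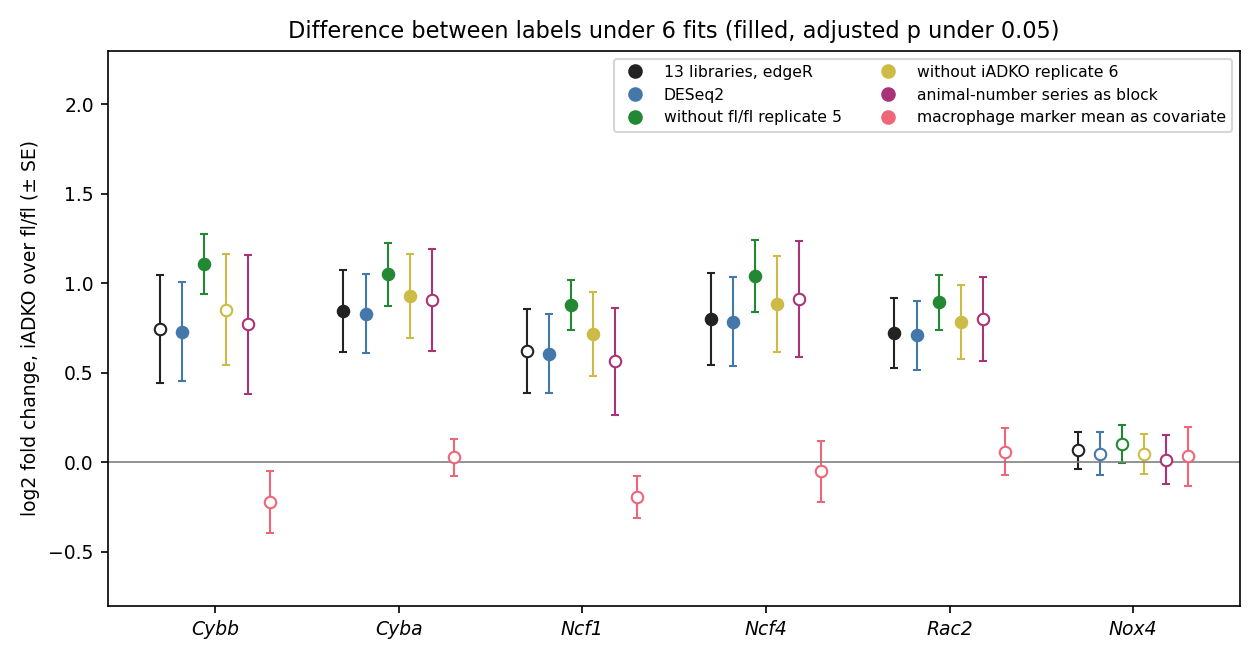
log2 fold change ± SE (y axis) of the 6 genes (x axis) in the fit of all 13 libraries and 5 alternative fits, filled where the adjusted p was under 0.05. All 5 phagocyte genes are filled with fl/fl replicate 5 left out, none with the series as a block, and all lie near 0 or below with the macrophage marker mean as a covariate.

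Of the other genes of the oxidase system, 33 were considered, 32 had values and 29 could be tested. Of these, 13 rose, 2 fell and 14 did not pass, with a median log2 fold change of 0.25. Over all genes tested, 14.1% were called higher and 16.3% lower, and the median was 0.03. With the series as a block 5 were higher and 0 lower (4.68% and 7.17% of all genes tested). With the macrophage covariate 1 was higher (Vav3, adjusted p = 0.0484, edgeR) and 0 lower (0.68% and 0.716% of all genes tested). Of the genes named next, Vav3, Tiam1, Pak1 and Nrros kept their calls under the series block, while Cybc1, Poldip2, Dock2, Vav1, Arhgdib, Prkcd and Prkca lost theirs (adjusted p of 0.0512 to 0.217, edgeR). Cybc1, the chaperone that gp91phox needs in order to mature, rose from 38.7 ± 4.69 CPM (SD, n = 7) to 48.2 ± 5.28 CPM (SD, n = 6; log2 fold change 0.32, adjusted p = 0.0139, edgeR). Nrros, which promotes degradation of gp91phox and so restrains the oxidase, also rose (log2 fold change 0.71, adjusted p = 0.00224, edgeR). Poldip2, a partner of Nox4, fell from 110 ± 13.4 CPM to 84.4 ± 7.46 CPM (log2 fold change -0.38, adjusted p = 0.00446, edgeR).

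In the group of GTPases and their regulators, 7 of 12 genes rose and 0 fell, beside 14.1% and 16.3% of all genes tested. The exchange factors Dock2 (log2 fold change 0.84, adjusted p = 0.0071, edgeR) and Vav1 (0.78, adjusted p = 0.0191) are known from blood cells, as is Arhgdib, which holds small GTPases in the cytosol (0.54, adjusted p = 0.00649). For Vav3 and Tiam1, every iADKO library was above every fl/fl library, which held for 2.71% of all genes tested. Vav3 rose from 14.5 ± 1.65 CPM to 21.9 ± 1.62 CPM (log2 fold change 0.60, adjusted p = 0.000285, edgeR) and Tiam1 from 17.5 ± 2.76 CPM to 26.0 ± 3.15 CPM (0.57, adjusted p = 0.00194). Among activating kinases, Prkcd, which phosphorylates p47phox, rose (0.80, adjusted p = 0.00909, edgeR), Pak1 rose without overlap of the groups (0.78, adjusted p = 0.000842), and Prkca fell at the edge of the threshold (-0.27, adjusted p = 0.0497), a call kept in 2 of 13 fits that left out 1 library. Of the catalytic relatives, Duox1 and Duox2 did not pass (log2 fold change 0.21 and -0.13), and Nox1 was too low to be tested, with 31 counts over all libraries.

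**Figure D5:**
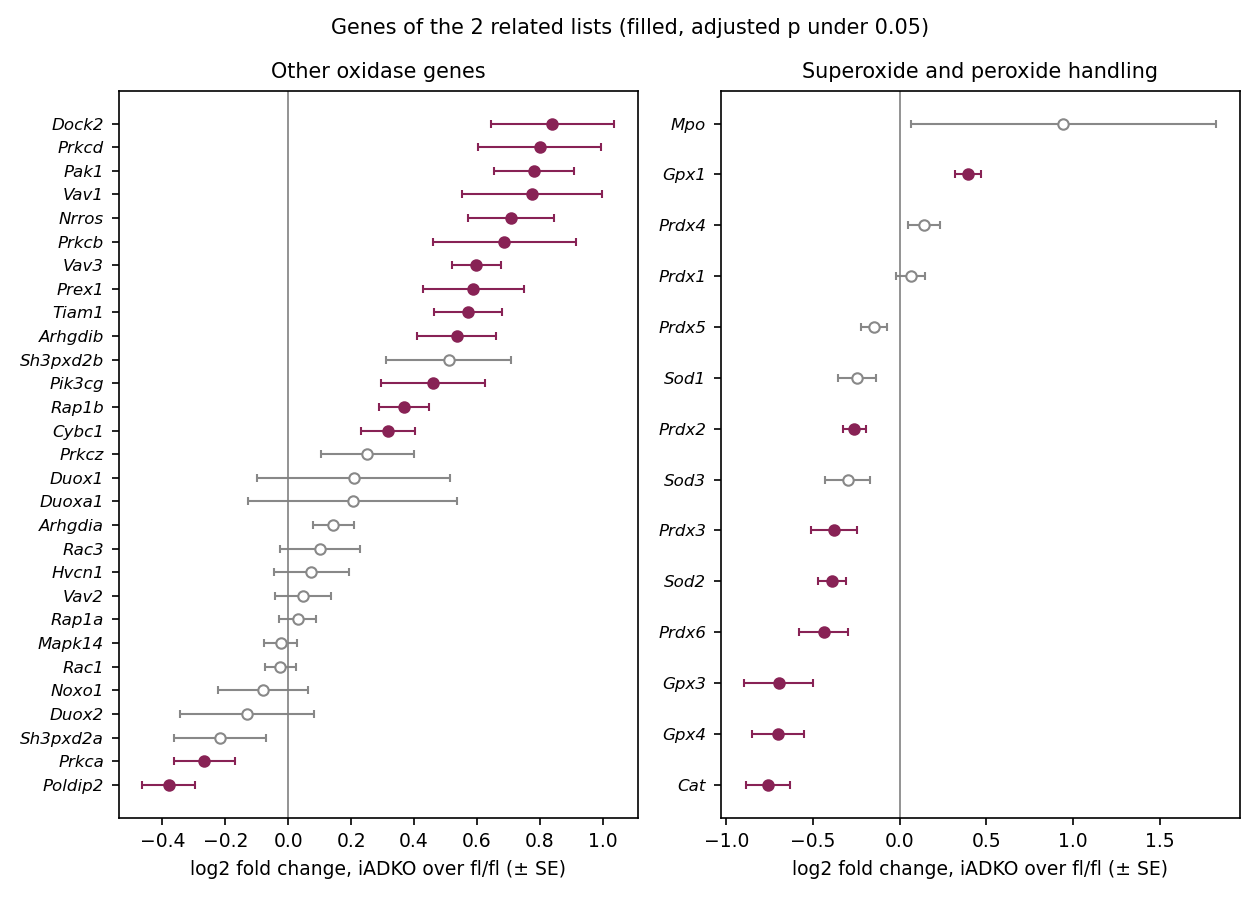
log2 fold change ± SE (x axes) of the 29 tested genes related to the oxidase (left) and of 14 genes that handle superoxide and peroxide (right), filled where the adjusted p was under 0.05. On the left 13 filled points lie above 0 and 2 below, on the right 1 above and 7 below.

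The last list held 14 genes that handle superoxide and peroxide, 13 of them enzymes of removal and Mpo a user of peroxide. Of these, 1 rose, 7 fell and 6 did not pass, with a median log2 fold change of -0.28. Over all genes tested, 14.1% were called higher and 16.3% lower, and the median was 0.03. With scaling by total counts only the split was 3 higher and 3 lower (44.2% and 7.62% of all genes tested). With the series as a block it was 1 and 2 (4.68% and 7.17%), and with the macrophage covariate 0 were called (0.68% and 0.716%). Catalase (Cat) fell from 1012 ± 161 CPM (SD, n = 7) to 598 ± 101 CPM (SD, n = 6; log2 fold change -0.76, adjusted p = 0.000899, edgeR), and every iADKO library was below every fl/fl library, which held for 3.93% of all genes tested. Mitochondrial superoxide dismutase (Sod2) fell from 147 ± 15.9 CPM to 112 ± 10.6 CPM (log2 fold change -0.39, adjusted p = 0.00317, edgeR). The glutathione peroxidases differed in direction. Gpx1, the cytosolic form, rose (0.39, adjusted p = 0.00193, edgeR). Every iADKO library was above every fl/fl library for Gpx1, which held for 2.71% of all genes tested. The secreted Gpx3 (-0.70, adjusted p = 0.0172, edgeR) and Gpx4, which reduces lipid peroxides in membranes (-0.70, adjusted p = 0.00426, edgeR), fell. Sod2 (adjusted p = 0.0677, edgeR) and Gpx4 (0.0585) lost their calls with the series as a block, and Gpx3 lost its call with total counts only (0.0512). Sod1 did not pass (-0.25, adjusted p = 0.102, edgeR), but was called in 1 of 13 fits that left out 1 library each (adjusted p = 0.00144, edgeR). Mpo, from neutrophil granules, was at 5.76 ± 7.92 CPM and 11.1 ± 6.78 CPM and did not pass (adjusted p = 0.435, edgeR). Adipocyte markers were lower beside these enzymes, and how far the adipocyte share sets their levels was not tested.

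Over the 13 libraries, the genes most like each member in log2 CPM reached higher r for the phagocyte genes than for Nox4, and several are known from myeloid cells. Cybb was most like Sema4d (Pearson r 0.986), Tnfrsf1b, Gsap, Mpeg1 and Bach1 (0.983). Cyba was closest to the complement gene C1qb (0.994), followed by Tyrobp, Pld3, Slc15a3 and Hcls1. Among the genes most like Ncf1 were Arrb2 (0.981), Tnfrsf1b, Aph1c and Cerk. Ncf4 was most like Lilrb4a (0.990), Pilra, Clec7a, Fgr and Csf2rb2, and Rac2 was most like Sash3 (0.989), Fermt3, Hcls1, Ly9 and Slc15a3. The genes nearest to Nox4 reached lower values and were Nova1 (0.899), Igkv3-10, Cd55, 2610021A01Rik and Thy1 (0.783). They had log2 fold changes of 0.09 to 0.31, and 0 of them were called. As the closest of 16753 genes to each member, these r values are high by selection.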

How the data were processed

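Bulk RNA-Seq of pmWAT was analyzed for 7 fl/fl and 6 iADKO libraries, grouped by their labels. The authors sequenced strand-specific mRNA libraries, checked reads with FastQC 0.12.1 and aligned them with STAR 2.7.11a to mm39. The counting tool, annotation and strand setting are not given in the sources used here. The authors deposited raw counts per gene for 33618 Ensembl identifiers, and deposited log2 values (DESeq2 rlog) of the same counts, which were used in an alternative only.

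Identifiers were named with GENCODE vM39 (33184 matched). In R 4.3.3, genes passing filterByExpr were normalized by TMM and tested with edgeR 4.0.16 (robust quasi-likelihood, Benjamini-Hochberg adjusted p over 16753 genes, threshold 0.05) with genotype as the only term. Log2 CPM used a prior count of 2. DESeq2 1.42.0 and limma 3.58.1 on rlog values were alternatives, as were other scalings and filters, blocks, a macrophage covariate and each library left out. Libraries held 18854223 to 19776491 counts in total, while values of the 6 genes rest on 65 (lowest, Nox4) to 7625 counts (highest, Cybb). The spread between mice includes counting error.

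The 6 genes, the gene lists and the tests were chosen with earlier results of these data known. Genes named in the text were the 6 members, list genes by order or as called ones, the 5 genes most like each member, and Lmna. Of the 6 genes, 4 had a RefSeq promoter window. Some genes of the lists and of those most like a member are not reported here.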

Additional observations from a re-analysis of the deposited data

Results flagged for a closer look

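In each group, the highest and lowest library of the 6 genes and of the 2 related lists was compared with its neighbour, and a gap above 0.568 of the range (7 libraries) or 0.625 (6 libraries) was marked. Of 98 pairs of gene and group, 14 were marked, where chance marks about 1 in 20, but the genes move together and so are not separate cases: 10 lay in fl/fl replicate 5, 3 in iADKO replicate 6 and 1 in fl/fl replicate 7.

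In fl/fl replicate 5, the highest fl/fl values stood apart for Cybb (385.9 CPM), Ncf1 (96.2 CPM), Cybc1 (48.0 CPM), Dock2 (112 CPM), Prex1 (86.2 CPM), Prkcd (155 CPM), Prkcb (38.7 CPM) and Nrros (71.8 CPM), and the lowest for Sod2 (114.7 CPM) and Gpx4 (236.6 CPM). In iADKO replicate 6, Sod1 (398 CPM), Sod2 (133 CPM) and Gpx3 (1292 CPM) were the highest of their group. Mpo stood apart in fl/fl replicate 7 (22.9 CPM). The summed macrophage markers were at 2692 CPM in fl/fl replicate 5, the highest of fl/fl, and at 1912 CPM in iADKO replicate 6, the lowest of iADKO. Other markers stood out in them too. In fl/fl replicate 5, skeletal muscle markers summed to 312 CPM (fl/fl median 56.1) and adipocyte markers to 8059 CPM, the lowest of fl/fl. In iADKO replicate 6, epithelial markers summed to 171 CPM (iADKO median 34.6) and adipocyte markers to 9542 CPM, each the highest of iADKO. The cause was not tested.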

How the results depend on the processing

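Cyba and Rac2 stayed called under every scaling, filter and test tried and with any library left out, but not with the animal-number series as a block or the macrophage covariate. Leaving out fl/fl replicate 5 raised the number of members called from 3 to 5, and leaving out single libraries gave 2 to 5 members and log2 fold changes of 0.65 to 1.11 for Cybb, 0.77 to 1.05 for Cyba, 0.56 to 0.88 for Ncf1, 0.71 to 1.04 for Ncf4, 0.64 to 0.90 for Rac2 and 0.0086 to 0.11 for Nox4. Ncf1 was also called without iADKO replicate 6 (0.72, adjusted p = 0.0361, edgeR), and Rac1 ran from -0.037 to 0.0056, turning above 0 without iADKO replicate 5. Over all genes 3998 to 6604 were then called.

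Under 4 alternatives 5 members were called, with Cybb and Ncf1 added: DESeq2's test (0.73, adjusted p = 0.0314, and 0.61, adjusted p = 0.0255), limma on rlog values (0.66, adjusted p = 0.0363, and 0.51, adjusted p = 0.0344), total counts only in edgeR (0.92, adjusted p = 0.0329, and 0.81, adjusted p = 0.0205) and the replicate block (0.93, adjusted p = 0.0360, and 0.74, adjusted p = 0.0166; 2379 of all genes called higher). Scaling by total counts shifted the median log2 fold change of all genes from 0.03 to 0.24 and called 8673 genes, of which 85.3% were higher, instead of 5104 with 46.4% higher, and Rac1 turned to 0.18, so that changes are read relative to that shift. The labels do not give the replicate numbers as pairs of mice, and the block left out fl/fl replicate 7. Residuals of mice with the same number correlated at -0.03 to 0.22. Mice with different numbers were not compared, so these values do not decide whether the numbers pair the mice.

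Without a filter on low counts, Ncf4 was at 0.79 (adjusted p = 0.0904, edgeR). With the series as a block, 1986 genes, 0 members, 5 other oxidase genes, 3 peroxide genes and 18 markers were called, and Cyba (0.91), Ncf4 (0.91) and Rac2 (0.80) lost their calls. With the macrophage covariate, 234 genes, 0 members, 1 other oxidase gene and 0 peroxide genes were called, Cyba (0.028) and Rac2 (0.061) lost their calls, and Cybb (-0.22), Ncf1 (-0.19), Ncf4 (-0.049), Vav1 (-0.030) and Sod1 (0.064) changed sign. The cause was not tested. Depth limits Nox4, at 65 to 108 counts per library.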
